A study of Mus musculus with 12 samples.

Results

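Testis RNA from mice that received blueberry extract, 50 or 200 mg/kg daily, was taken as 1 treated side and set against testis RNA from mice given saline. The comparison used 9 of the 12 libraries of the study: 3 from saline, 3 at 50 mg/kg and 3 at 200 mg/kg, so the treated side had 6. Each dose carried the same weight, because the treated value of a gene was the mean of its 2 dose groups on the log2 scale. The 3 libraries at 100 mg/kg were left out, so that the members were chosen by a measured property. Their log2 fold changes against saline fell with transcript length, with a rank correlation of -0.467 across 15653 genes. At 100 mg/kg the median log2 fold change was 0.38 among 857 genes shorter than 1000 bases, while it was -0.30 among 3440 genes with 5000 or more. In the pooled comparison the same rank correlation was 0.108 across 15470 genes, 0.0481 at 50 mg/kg and 0.150 at 200 mg/kg. The medians for short and long genes were then -0.044 and 0.038. These correlations are across genes that share their libraries, and they describe the choice of libraries.

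All mice were wild-type males of ICR, an outbred laboratory stock, aged 8 months at the first dose and 9 months at collection. The extract or saline was given daily through a stomach tube, and the saline mice were therefore also aged and handled animals. No younger group is among the samples, and the sources used here do not give the composition of the extract. The title of the study names sperm motility that declines with age, and inflammation, as its subject.

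In the testis, germ cells divide, pass through meiosis and build a flagellum inside seminiferous tubules. Sertoli cells line the tubules, feed the germ cells and seal the tubule behind tight junctions, while Leydig cells between the tubules turn cholesterol into testosterone. Macrophages and other immune cells lie mostly outside the tubules. Sperm motility depends on dynein motors of the flagellum, on the CatSper calcium channel and on energy from glycolysis and mitochondria.

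Each library held 14382378 to 19118265 counts in 21959 genes, of which 15499 passed the filter on low counts. The 3 groups separated cleanly. The first principal component, with 35.3% of the variance, placed the saline libraries between -26.6 and -25.6 and the treated libraries between 11.1 and 15.6. The second, with 20.2%, placed the 50 mg/kg libraries between -20.2 and -16.5 and the 200 mg/kg libraries between 15.4 and 18.5. The median SD of a gene within a group was 0.0896 to 0.0946 (log2), and the median SD of the 3 group means was 0.107. The labelled tissue was checked against markers. The 9 germ cell markers were all detected, with 15913 to 17972 summed CPM (read counts scaled to a common library size) per library. Of the epididymis markers 2 of 6 had 0 counts, and skeletal muscle markers summed to at most 2.64 CPM. Fat markers were higher, at 26.0 to 29.2 CPM in saline, 27.7 to 37.1 at 50 mg/kg and 23.2 to 34.2 at 200 mg/kg. Most of that was Adipoq (mean 27.6 CPM), and 0 of the 2 fat markers tested passed. Whether each library is a separate animal is not stated, so the p-values reflect variation among libraries alone, possibly technical.

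Of the 15499 genes tested, 4644 differed between the treated side and saline at a Benjamini-Hochberg adjusted p under 0.05 in edgeR's quasi-likelihood test, which is 30% of all genes. Of these, 2335 were higher with extract (15.1%) and 2309 were lower (14.9%). Scaled by library size alone the split was 2801 higher and 1789 lower, so that 61% of calls were higher in place of 50.3%. Most changes were small: the median called gene differed by 1.18-fold, and 303 genes (1.95%) differed by at least 2-fold. Of those 303, 252 were higher (1.63%) and 51 lower (0.329%). The count of calls was 3488 without saline library 2 and 4963 without 50 mg/kg library 1. The 6 treated libraries lay entirely above or entirely below the 3 saline libraries in 3409 genes, 22% of those tested (11.3% above, 10.7% below). Of the called genes 3017, or 19.5% of all genes, were among them, and 2688 of these (17.3% of all genes) did not also pass the test of 200 against 50 mg/kg.

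Size and direction of the calls went with abundance. Among the 2416 genes with a mean of at least 100 CPM, 17.2% were higher and 32.4% lower, and 0 changed by 2-fold or more. Between 10 and 100 CPM 16.9% of 6651 genes were higher and 17.5% lower, and between 1 and 10 CPM 12.9% of 5268 were higher and 6.34% lower. Of the 1164 genes under 1 CPM, 10.1% were higher and 2.75% lower, and 131 passed with at least a 2-fold change. Changes of at least 2-fold were thus found mostly in weakly expressed genes, with a median of 1.24 CPM against 15.5 CPM over all genes tested. Counts of lists of abundant genes should be read against the first of these shares.

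The largest rise among genes with a known name was in Ibsp, which encodes bone sialoprotein, a secreted protein of mineralising matrix. The RefSeq windows around the transcription starts of 4 genes (Ibsp, the muscle genes Casq1 and Cavin4, and the cadherin gene Cdh22) are shown because these genes are among the largest changes. Coordinates are those of GRCm38.p6, and each window runs 5′ to 3′ along the gene's own strand from 250 bases before the start to 50 after it. Capitals mark matches, on either strand, to 4 motifs. The first is TATAAA of the TATA box, the next the E-box CAGCTG. The others are the cyclic AMP element TGACGTCA, with 0 matches here, and the GC box GGGCGG. Ibsp is shown at chr5:104299037-104299336, plus strand, Casq1 at chr1:172219846-172220145, minus strand, Cavin4 at chr4:48663264-48663563, plus strand, and Cdh22 at chr2:165234688-165234987, minus strand.
Ibsp: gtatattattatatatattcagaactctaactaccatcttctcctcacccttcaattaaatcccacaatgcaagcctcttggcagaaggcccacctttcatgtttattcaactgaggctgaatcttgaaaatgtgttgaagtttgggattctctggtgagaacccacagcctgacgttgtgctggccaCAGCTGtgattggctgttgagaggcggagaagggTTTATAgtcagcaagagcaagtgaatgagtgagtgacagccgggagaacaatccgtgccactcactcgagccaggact
Casq1: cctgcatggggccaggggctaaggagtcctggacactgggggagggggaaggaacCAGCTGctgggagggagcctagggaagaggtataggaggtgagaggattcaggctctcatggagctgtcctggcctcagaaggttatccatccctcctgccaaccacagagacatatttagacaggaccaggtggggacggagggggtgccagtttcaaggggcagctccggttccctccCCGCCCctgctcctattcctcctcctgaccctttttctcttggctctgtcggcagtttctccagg
Cavin4: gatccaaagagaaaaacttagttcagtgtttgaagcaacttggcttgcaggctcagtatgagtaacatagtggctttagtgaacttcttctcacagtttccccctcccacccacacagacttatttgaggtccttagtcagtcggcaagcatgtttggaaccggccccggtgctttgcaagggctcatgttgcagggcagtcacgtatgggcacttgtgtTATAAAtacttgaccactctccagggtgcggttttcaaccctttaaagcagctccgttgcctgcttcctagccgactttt
Cdh22: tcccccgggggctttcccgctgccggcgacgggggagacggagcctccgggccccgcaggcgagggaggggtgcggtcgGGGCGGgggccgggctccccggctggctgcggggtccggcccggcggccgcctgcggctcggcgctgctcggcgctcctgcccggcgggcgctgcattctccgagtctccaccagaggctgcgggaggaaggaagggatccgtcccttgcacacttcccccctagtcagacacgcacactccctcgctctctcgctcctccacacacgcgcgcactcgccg
By the position of its first base before the annotated start, Ibsp held TATAAA on the opposite strand at -28 and CAGCTG at -62. Casq1 held CAGCTG at -195 and GGGCGG on the opposite strand at -15. Cavin4 held TATAAA at -30, and Cdh22 held GGGCGG at -171. No 2 of these matches overlapped. Over the 12082 tested genes that had a window, 78.0% of all tested, TATAAA occurred in 7.77%, CAGCTG in 15.1%, TGACGTCA in 2.98% and GGGCGG in 58.9%. Such matches describe letters and are not binding sites.

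Ibsp (ENSMUSG00000029306, chromosome 5 from 104299171 to 104311469 of GRCm38) stood at 1.16, 1.06 and 1.78 CPM in saline, 34.6, 26.95 and 33.9 at 50 mg/kg, then 19.8, 18.6 and 18.5 at 200 mg/kg. Every treated library was above every saline library, which the rule for naming genes by size of change required. The 50 mg/kg libraries were above those at 200 mg/kg. The pooled rise was 18.3-fold (log2 fold change 4.20 ± 0.13, adjusted p = 3.32e-33, ± standard error). Bmp3, a secreted member of the bone morphogenetic protein family, stood at 0.674, 1.46 and 1.19 CPM in saline, 3.97, 4.77 and 5.40 at 50 mg/kg, then 5.48, 7.34 and 6.55 at 200 mg/kg. It rose 4.92-fold (log2 fold change 2.30 ± 0.20, adjusted p = 1.4e-14), with no overlap, as the rule required. Among the largest rises were also 3 genes of striated muscle. Of the 15 tested genes listed for striated muscle, 5 rose and 10 did not pass. Casq1, which binds calcium in the sarcoplasmic reticulum, had 0.184, 0.448 and 0.297 CPM in saline, 1.54, 2.04 and 1.97 at 50 mg/kg, then 1.73, 2.56 and 1.74 at 200 mg/kg (log2 fold change 2.59 ± 0.34, adjusted p = 1.44e-08). Cavin4, a caveola protein of muscle, had 0.429, 0.785 and 0.297 CPM in saline, 2.30, 1.86 and 1.92 at 50 mg/kg, then 2.42, 2.15 and 2.52 at 200 mg/kg (log2 fold change 2.09 ± 0.29, adjusted p = 5.94e-08). Neb, which encodes the giant thin-filament protein nebulin, had 2.51, 1.57 and 2.08 CPM in saline, 5.31, 7.001 and 7.94 at 50 mg/kg, then 8.88, 7.90 and 7.84 at 200 mg/kg (log2 fold change 1.87 ± 0.16, adjusted p = 1.05e-14). In each of these 3 genes the treated and saline libraries did not overlap, again by the rule. The 200 against 50 mg/kg test did not pass in any of them (adjusted p = 0.881, 0.652 and 0.244).

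The other named rises were among surface, receptor and nuclear genes. Pcdh9, a protocadherin of cell contacts, rose by 2.83 ± 0.32 on the log2 scale. Olfr873 (2.57 ± 0.36), Olfr16 (2.24 ± 0.25) and Vmn1r224 (2.27 ± 0.39), of the odorant and vomeronasal receptor families, rose from under 1 CPM in every saline library. The zinc finger gene Zfp820 went from 4.41, 4.88 and 3.44 CPM in saline to 19.8, 24.4 and 23.6 at 50 mg/kg, then 16.6, 17.9 and 17.4 at 200 mg/kg (2.22 ± 0.11). Mfsd2b, a transporter of sphingosine phosphate, rose by 1.92 ± 0.28, Tgfbr3l by 1.94 ± 0.33, Crip3 by 1.86 ± 0.26 and the T-cell coreceptor gene Cd8b1 by 1.85 ± 0.37. For these 9 genes the adjusted p lay between 1.22e-25 and 5.94e-05. Reads of receptor and zinc finger genes can be shared with close copies, and Tgfbr3l overlaps Gm49320, so their counts are uncertain. Across those families 74 of 355 tested Zfp genes were higher (20.8%) and 23 lower (6.48%), against 15.1% and 14.9% of all genes, and 12.9% and 6.34% of genes between 1 and 10 CPM. By the same measure 12 of 54 Olfr genes were higher and 1 lower, and 13 of 26 Vmn genes were higher, the other Vmn genes missing the threshold.

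Cdh22, a cadherin that joins cells to each other, showed the largest named fall. It stood at 7.17, 8.86 and 8.01 CPM in saline, 0.960, 0.867 and 0.779 at 50 mg/kg, then 0.346, 0.831 and 0.392 at 200 mg/kg. All treated libraries were under 1 CPM and all saline libraries above 7, a fall of 12.02-fold (log2 fold change -3.59 ± 0.18, adjusted p = 4.43e-24). Zfp951, a zinc finger gene, had 7.90, 9.30 and 7.47 CPM in saline, 1.09, 1.18 and 1.30 at 50 mg/kg, then 1.10, 1.32 and 1.06 at 200 mg/kg (log2 fold change -2.81 ± 0.16, adjusted p = 2.53e-22). Both doses reached nearly the same level in that gene, with a 200 against 50 mg/kg difference of -0.055 ± 0.28. Aqp2, a water channel best known in the kidney collecting duct, had 6.62, 9.14 and 7.71 CPM in saline, 2.95, 1.55 and 1.92 at 50 mg/kg, then 2.71, 3.46 and 2.97 at 200 mg/kg (log2 fold change -1.63 ± 0.15, adjusted p = 9.51e-14). Nrg3, a ligand of the receptor ErbB4, had 5.51, 5.66 and 5.75 CPM in saline, 2.43, 2.17 and 2.80 at 50 mg/kg, then 2.42, 2.22 and 2.52 at 200 mg/kg (log2 fold change -1.21 ± 0.15, adjusted p = 2.45e-09). Crtam, an adhesion molecule of cytotoxic lymphocytes, had 41.2, 44.1 and 46.4 CPM in saline, 15.1, 15.2 and 15.1 at 50 mg/kg, then 23.98, 19.95 and 22.7 at 200 mg/kg, with the 50 mg/kg libraries lowest (log2 fold change -1.26 ± 0.060, adjusted p = 1.27e-25). The 6 defining lymphocyte markers together summed to only 1.63 to 2.61 CPM in saline, and which cells the Crtam counts come from was not tested. In Fnbp1l, which bends membranes during endocytosis, the values were 149, 146 and 148 CPM in saline, 40.6, 44.2 and 40.2 at 50 mg/kg, then 98.1, 99.3 and 102 at 200 mg/kg (log2 fold change -1.19 ± 0.036, adjusted p = 1.25e-35). Its 3 groups did not overlap, and the 50 mg/kg libraries were again lowest.

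**Figure D1:**
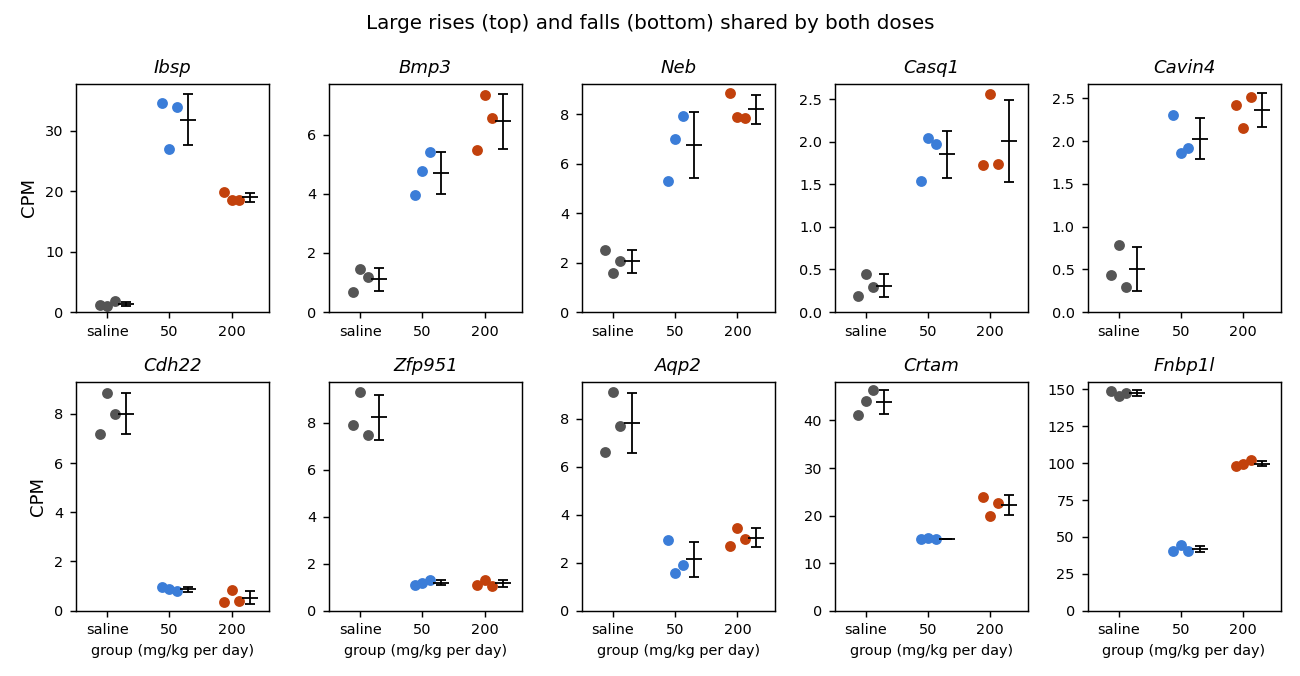
CPM per library for 5 large rises and 5 large falls, 1 panel per gene with its own linear axis from 0 (points are libraries, bars are the mean ± SD of 3 libraries, groups on the horizontal axis in mg/kg per day). All 10 genes were chosen so that the 6 treated libraries lie on 1 side of the 3 saline libraries, as in 22% of all genes tested. Ibsp, Crtam and Fnbp1l also differ between the doses.

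The remaining named falls included genes of immune cells and secretions. Tap1, which pumps peptides to class I histocompatibility molecules, had 3.80, 3.64 and 3.26 CPM in saline, 1.28, 1.55 and 1.35 at 50 mg/kg, then 0.865, 0.901 and 1.40 at 200 mg/kg (log2 fold change -1.54 ± 0.20, adjusted p = 8.21e-09), but it overlaps Psmb9. C1rb, a protease of the complement cascade that has a close copy, fell by 3.95-fold (log2 fold change -1.98 ± 0.25, adjusted p = 3.91e-09). Gpnmb, a glycoprotein of macrophages and pigment cells, fell by 3.63-fold (log2 fold change -1.86 ± 0.26, adjusted p = 3.77e-08). The ATP-gated channel gene P2rx5 had 6.80, 8.13 and 8.96 CPM in saline, 1.02, 1.55 and 0.831 at 50 mg/kg, then 6.57, 5.13 and 5.94 at 200 mg/kg, so the fall was mostly at 50 mg/kg (log2 fold change -1.63 ± 0.15, adjusted p = 7.9e-14). Lhfpl3 showed the same order, with 2.94, 3.31 and 4.75 CPM in saline, 0.128, 0.248 and 0.519 at 50 mg/kg, then 1.27, 1.39 and 1.34 at 200 mg/kg (log2 fold change -2.49 ± 0.24, adjusted p = 1.32e-12). Neither gene's saline and 50 mg/kg libraries overlapped, as the naming rule required. Svs5, a seminal vesicle protein, fell by 3.45-fold from 1.84, 2.86 and 2.67 CPM (log2 fold change -1.78 ± 0.27, adjusted p = 4.91e-07). Seminal vesicle markers as a whole summed to 2.72 to 4.64 CPM in saline, 1.203 to 1.87 at 50 mg/kg and 1.46 to 2.53 at 200 mg/kg. Epididymis markers summed to 6.81 to 7.0 CPM in saline, 5.02 to 5.67 at 50 mg/kg and 3.62 to 3.88 at 200 mg/kg with no overlap, nearly all of it from Rnase10 (log2 fold change -0.68 ± 0.13, adjusted p = 2.22e-05). The part of tissue next to the testis in these values was not tested. Atg9b, of the autophagy machinery, fell by 2.58-fold but overlaps Nos3, and Aldh1a7, a retinaldehyde dehydrogenase family member with a close copy, fell by 2.52-fold (log2 fold change -1.33 ± 0.099, adjusted p = 3.05e-17).

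Changes in abundant transcripts were smaller and measured more tightly. Hnrnph1, an RNA-binding protein of splicing, had 165, 173 and 174 CPM in saline, 242, 271 and 269 at 50 mg/kg, then 262, 272 and 261 at 200 mg/kg. The 6 treated libraries lay above saline, as the naming rule required. The doses did not differ detectably (pooled log2 fold change 0.63 ± 0.032, adjusted p = 8.5e-24, 200 against 50 mg/kg 0.024 ± 0.035). Cst8, a cystatin of the male reproductive tract, had 169, 166 and 164 CPM in saline, 240.4, 224 and 228 at 50 mg/kg, then 240.4, 232 and 250.1 at 200 mg/kg (log2 fold change 0.51 ± 0.031, adjusted p = 5.1e-21). Aldh1a1, which makes retinoic acid and shares sequence with Aldh1a7, had 545, 519 and 539.7 CPM in saline, 713, 709 and 716 at 50 mg/kg, then 669, 654 and 654 at 200 mg/kg (log2 fold change 0.36 ± 0.023, adjusted p = 1.75e-19). The other rises by change in CPM were Slc16a7, a monocarboxylate transporter (0.16 ± 0.023), Hook1, of the sperm manchette (0.17 ± 0.024), Fam71d (0.16 ± 0.024), Nudt4 (0.15 ± 0.021), the piRNA factor gene Mael (0.15 ± 0.021), the sperm surface gene Adam3 (0.10 ± 0.021) and Fhl4 (0.062 ± 0.019). Fhl4 lost its call with all 12 libraries in the fit (adjusted p = 0.138, 1.42e-06 to 1 over its alternatives).

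Agt, which encodes the angiotensin precursor, showed the largest log2 change among the 10 falls named for their change in CPM. It had 498, 499.5 and 531 CPM in saline, 327, 322 and 329 at 50 mg/kg, then 361, 367 and 357 at 200 mg/kg (log2 fold change -0.57 ± 0.025, adjusted p = 1.36e-27). Clu, the secreted chaperone clusterin of Sertoli cells, had 819, 819 and 832 CPM in saline, 683, 636 and 645 at 50 mg/kg, then 578, 586 and 588 at 200 mg/kg (log2 fold change -0.41 ± 0.023, adjusted p = 1.28e-22). Clu stepped down from saline to 50 to 200 mg/kg without overlap. Sord, which makes fructose from sorbitol, had 2086, 2068 and 2105 CPM in saline, 1808, 1823 and 1805 at 50 mg/kg, then 1768, 1792 and 1788 at 200 mg/kg (log2 fold change -0.22 ± 0.020, adjusted p = 8.97e-14). Prm2, the protamine that packs sperm DNA, was the most abundant of them, with 4827, 5098 and 4909 CPM in saline, 4714, 4623 and 4525 at 50 mg/kg, then 4464, 4013 and 4500.3 at 200 mg/kg (log2 fold change -0.15 ± 0.035, adjusted p = 0.00886). Its call was lost with all 12 libraries in the fit (adjusted p = 0.171, 1.69e-12 to 1 over its alternatives). Tuba3b, an alpha tubulin of the testis (-0.26 ± 0.021), the translation factor gene Eef2 (-0.20 ± 0.020), the lipid flippase gene Atp8b3 of the acrosome (-0.19 ± 0.019), the hexokinase gene Hk1 (-0.14 ± 0.020) and the mitochondrial gene mt-Nd1 (-0.27 ± 0.052) fell as well.

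**Figure D2:**
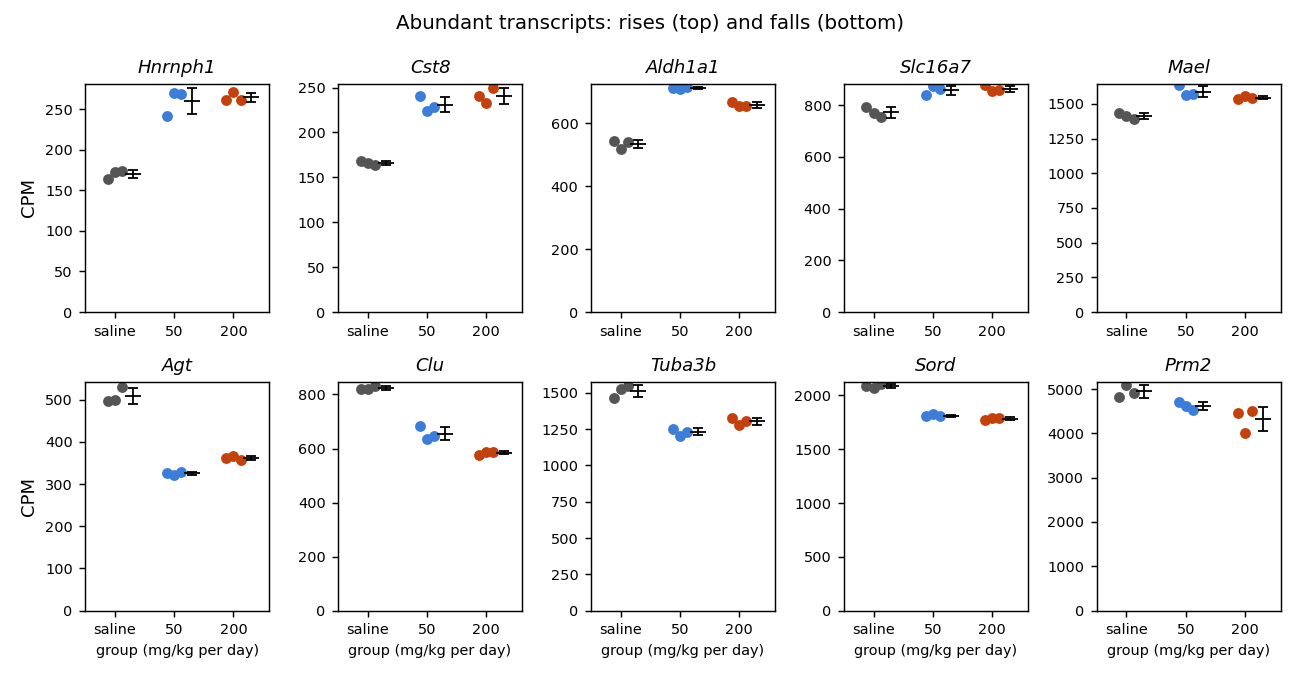
CPM per library for 5 rises and 5 falls among the abundant genes with the largest change in CPM, 1 panel per gene with a linear axis from 0 (points are libraries, bars are the mean ± SD of 3 libraries, groups in mg/kg per day). Agt stands at 498 to 531 CPM in saline and 322 to 367 CPM in the treated libraries, and Hnrnph1 at 165 to 174 against 242 to 272.

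Of 29 tested Sertoli cell markers 15 fell, 1 rose and 13 missed the threshold, and the median log2 change was -0.21, against -0.0041 over all genes. Over all genes 14.9% fell and 15.1% rose. The 8 defining markers summed to 954 to 973 CPM in saline, 773 to 819 at 50 mg/kg and 711 to 714 at 200 mg/kg, and the 3 groups did not overlap. Most of that sum was Clu, with a mean of 686 CPM over the 9 libraries, and the next was Cldn11 at 64.1. Of the 8 markers 5 were called lower and 0 higher. Ptgds, a prostaglandin D synthase, had 355, 388 and 377 CPM in saline, 232, 237 and 229.6 at 50 mg/kg, then 251, 241 and 240.1 at 200 mg/kg (log2 fold change -0.65 ± 0.027, adjusted p = 2.34e-28). Ctsl, a protease Sertoli cells secrete, stepped down from 362, 361 and 367 CPM in saline to 312, 307 and 315 at 50 mg/kg, then 280.3, 275 and 269 at 200 mg/kg. Fshr, the receptor for follicle-stimulating hormone (-0.56), Inha, the inhibin alpha chain (-0.46), the androgen-responsive gene Rhox5 (-0.39) and Shbg, which binds sex steroids (-0.34), also fell on the log2 scale, and these 4, like other genes below whose log2 change has no error, were chosen after their values were seen. The Sertoli cell junction gene Cldn11, which seals the tubule, had 69.2, 71.7 and 74.4 CPM in saline, 62.8, 63.2 and 61.9 at 50 mg/kg, then 61.5, 56.1 and 56.6 at 200 mg/kg (log2 fold change -0.25 ± 0.043, adjusted p = 4.11e-06). The member that rose was the cystatin gene Cst9, with 30.5, 30.4 and 33.9 CPM in saline, 81.1, 79.1 and 74.7 at 50 mg/kg, then 73.3, 74.7 and 70.02 at 200 mg/kg (log2 fold change 1.25 ± 0.049, adjusted p = 1.14e-29). Without 50 mg/kg library 1 the rises numbered 2. The part of cell numbers in these values was not tested, and in bulk tissue fewer cells of a type and less RNA per cell cannot be told apart.

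Steroid synthesis in Leydig cells gave a mixed list: of 17 tested genes 5 fell and 2 rose, with a median of -0.049. Over all genes 14.9% fell, and 32.4% of those with a mean of at least 100 CPM, which 6 of the 17 had. The hormone receptor came first in order of size. Lhcgr, the receptor for luteinising hormone, had 26.7, 24.5 and 25.5 CPM in saline, 22.5, 20.5 and 18.95 at 50 mg/kg, then 14.6, 14.9 and 15.2 at 200 mg/kg (log2 fold change -0.54 ± 0.068, adjusted p = 4.01e-09), stepping down with dose. Cyp11a1, which cuts the cholesterol side chain, had 146, 148 and 145 CPM in saline, 106, 97.2 and 103 at 50 mg/kg, then 113, 124 and 118 at 200 mg/kg (log2 fold change -0.42 ± 0.034, adjusted p = 2.8e-15). All treated libraries were below saline and the 50 mg/kg libraries were lowest. Hsd3b6, a later enzyme, had 76.2, 75.2 and 73.6 CPM in saline, 59.2, 57.3 and 59.2 at 50 mg/kg, then 64.9, 66.8 and 68.1 at 200 mg/kg (log2 fold change -0.26 ± 0.041, adjusted p = 6.48e-07), and Cyp17a1, which leads to androgens, had 493, 473 and 465 CPM in saline, 429.8, 421 and 417 at 50 mg/kg, then 425, 442 and 439 at 200 mg/kg (log2 fold change -0.15 ± 0.025, adjusted p = 1.26e-06). Por, which passes electrons to such enzymes, was the fifth to fall (-0.26), and Hsd3b1 (0.097) and Fdxr (0.27) were higher, named after their values were seen. The higher members numbered 5 on library size alone, 4 after the length correction and 1 without saline library 3. Hsd17b3, which makes testosterone, did not pass (log2 fold change 0.084 ± 0.041, adjusted p = 0.122), and neither did Insl3 (log2 fold change 0.21 ± 0.40, adjusted p = 0.734), a Leydig hormone gene counted at under 1 CPM and overlapping Jak3. The 7 Leydig markers summed to 1052 to 1082 CPM in saline, 1007 to 1050 at 50 mg/kg and 960 to 996 at 200 mg/kg.

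Cholesterol synthesis supplies that pathway. Of its 25 tested genes 12 fell and 1 rose, with a median of -0.15, against 14.9% lower and 15.1% higher over all genes. Msmo1, a sterol oxidase, had 34.98, 35.5 and 36.1 CPM in saline, 30.03, 31.4 and 28.3 at 50 mg/kg, then 28.1, 28.5 and 30.7 at 200 mg/kg (log2 fold change -0.27 ± 0.056, adjusted p = 0.000133). Sqle, squalene epoxidase, had 132, 139 and 138 CPM in saline, 117, 117 and 117 at 50 mg/kg, then 121, 129 and 124 at 200 mg/kg (log2 fold change -0.18 ± 0.033, adjusted p = 2.93e-05), and Ebp, a sterol isomerase, fell by 0.34 ± 0.084. The member that rose was Cyp51, lanosterol demethylase (0.17 ± 0.037), which overlaps Akap9. The count of falls was 7 without saline library 2, 6 without saline library 3 and 7 on library size alone.

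In genes of protein synthesis and turnover the falls were small. Among 80 ribosomal protein genes 39 fell and 1 rose, with a median of -0.11. Of the 80, 46 had a mean of at least 100 CPM, the range in which 32.4% of all genes were lower. The falls numbered 23 at 50 mg/kg and 41 at 200 mg/kg, each against the same saline libraries. Of all genes 25.8% and 27% passed at these doses, in either direction. After the length correction 34 fell and the median was -0.070. Rpsa, a protein of the small subunit, had 211, 208 and 224 CPM in saline, 203, 185 and 191 at 50 mg/kg, then 161, 167 and 155 at 200 mg/kg (log2 fold change -0.28 ± 0.032, adjusted p = 2.08e-10). Rpl35a, of the large subunit, had 46.3, 52.3 and 52.6 CPM in saline, 30.9, 36.6 and 32.8 at 50 mg/kg, then 25.3, 25.98 and 24.7 at 200 mg/kg (log2 fold change -0.80 ± 0.055, adjusted p = 1.37e-18). Rpl26 fell far more, with 122, 122 and 124 CPM in saline, 77.1, 79.8 and 76.6 at 50 mg/kg, then 10.1, 10.1 and 12.2 at 200 mg/kg (log2 fold change -2.08 ± 0.045, adjusted p = 7.3e-44). Its treated groups did not overlap either, and the fall was mostly at 200 mg/kg. Many ribosomal genes have close copies that can share reads, Rpl26 and Rps2 among them, so their counts are uncertain. The 1 higher member was Rps24 (0.16), named after its value was seen. The ribosomal falls numbered 24 with all 12 libraries in the fit and 25 with the 6 treated libraries as 1 group. The rises numbered 3 without 200 mg/kg library 3 and 2 without saline library 1 or 2 or 50 mg/kg library 2. Of 34 proteasome genes 17 fell and 1 rose, with a median of -0.099. Here 13 of the 34 had a mean of at least 100 CPM. Psmd2 (-0.17 ± 0.024), of the regulatory particle, and Psma2 (-0.28 ± 0.050), Psmb6 (-0.21 ± 0.033) and Psma3 (-0.20 ± 0.042), of the core, were lower in all 6 treated libraries. That held in 11 of the 34 genes, against 10.7% of all genes, and in 23 the libraries overlapped. Psma8, the subunit of the germ-cell proteasome, was the 1 member that rose (0.14). The proteasome rises numbered 2 without 50 mg/kg library 1. Psma2 overlaps AW209491 and its reads may be shared.

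Chaperones followed. Of 27 tested genes 12 fell and 4 rose, with a median of -0.070. Of the 27, 15 had a mean of at least 100 CPM, the range in which 32.4% of genes fell, against 14.9% of all genes. Hsp90ab1, a cytosolic chaperone, had 376, 377 and 365 CPM in saline, 306, 288 and 292 at 50 mg/kg, then 292, 322 and 297 at 200 mg/kg (log2 fold change -0.32 ± 0.027, adjusted p = 3.04e-14). Hspa5, the chaperone of the endoplasmic reticulum, had 655, 657 and 661 CPM in saline, 576, 617 and 602 at 50 mg/kg, then 558, 584 and 565 at 200 mg/kg (log2 fold change -0.17 ± 0.024, adjusted p = 3.43e-08), and Hspa2, which meiotic germ cells need, had 1161, 1146 and 1157 CPM in saline, 1032, 1036 and 1035 at 50 mg/kg, then 1067, 1078 and 1060.3 at 200 mg/kg (log2 fold change -0.14 ± 0.021, adjusted p = 5.32e-07). Hsp90b1, also of the endoplasmic reticulum, fell by 0.19 ± 0.028, a call lost with all 12 libraries in the fit (adjusted p = 0.0753) and with the 6 treated libraries as 1 group (0.0653, 1.7e-11 to 1 over its alternatives). The 4 rises, named after their values were seen, were in Hspb8 (0.98), Hsf2 (0.17), Dnajb4 (0.13) and Hspa4 (0.066). They numbered 2 without saline library 3, and the falls numbered 6 with all 12 libraries in the fit.

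Of 80 nuclear genes of oxidative phosphorylation, which makes ATP in mitochondria, 29 fell, 4 rose and 47 did not pass, with a median of -0.099. Over all genes 14.9% fell, and 32.4% of those with a mean of at least 100 CPM, which 19 of the 80 had. The falls numbered 16 at 50 mg/kg and 32 at 200 mg/kg, each against the same saline libraries. Of all genes 25.8% and 27% passed at these doses, in either direction. Uqcrc1, of respiratory complex III, had 250.2, 246 and 257 CPM in saline, 219, 204 and 209 at 50 mg/kg, then 219, 225 and 209.8 at 200 mg/kg (log2 fold change -0.23 ± 0.029, adjusted p = 5.63e-09). Cox7b2, a testis form of a complex IV subunit, had 191, 183 and 185 CPM in saline, 169, 154 and 163 at 50 mg/kg, then 150.1, 139 and 151 at 200 mg/kg (log2 fold change -0.27 ± 0.032, adjusted p = 5.17e-10), and Cycs, the electron carrier cytochrome c, fell by 0.29 ± 0.048. The ATP synthase subunit gene Atp5e, which has close copies, rose with 19.97, 24.4 and 22.5 CPM in saline, 39.6, 38.8 and 40.6 at 50 mg/kg, then 39.1, 32.9 and 35.8 at 200 mg/kg (log2 fold change 0.76 ± 0.063, adjusted p = 3.76e-15). Ndufb2 (0.97), Ndufs4 (0.12) and Ndufv2 (0.086) of complex I were the other rises, named after their values were seen. This list depended on the saline libraries: 17 falls were called without saline library 2, 18 without saline library 3 and 14 with all 12 libraries in the fit. The rises numbered 1 without saline library 1 and 2 without saline library 2 or 3 or 200 mg/kg library 1.

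Of 12 genes encoded by mitochondrial DNA 8 fell and 0 rose, with a median of -0.19. At 50 mg/kg 2 were lower (median -0.10) and at 200 mg/kg 9 (median -0.27), each against the same saline libraries. Of all genes 25.8% and 27% passed at these doses, in either direction. In the test of 200 against 50 mg/kg 4 were lower, against 5.46% of all genes. Of the 12, 7 had a mean of at least 100 CPM, the range in which 32.4% of all genes fell. mt-Nd5, of complex I, had 1105, 1013 and 978 CPM in saline, 979, 864 and 887 at 50 mg/kg, then 742, 699 and 736 at 200 mg/kg (log2 fold change -0.35 ± 0.053, adjusted p = 0.00201), and saline and 50 mg/kg libraries overlapped. mt-Nd3 (-0.60 ± 0.16), mt-Atp6 (-0.36 ± 0.084) and mt-Nd6 (-0.21 ± 0.050) were lower on the log2 scale. mt-Nd5 and mt-Nd6 overlap on opposite strands. The count of falls was 5 with all 12 libraries in the fit and 3 with the 6 treated libraries as 1 group. The rises numbered 0 in edgeR, at an unadjusted p under 0.05, in DESeq2 and in limma voom. In germ-cell glycolysis, 15 of 31 genes fell and 4 rose, with a median of -0.099. Of the 31, 18 were in that range of at least 100 CPM, with its 32.4% of genes lower. Eno1, the common enolase, had 302, 309 and 304 CPM in saline, 267, 256 and 252 at 50 mg/kg, then 251, 251 and 252 at 200 mg/kg (log2 fold change -0.26 ± 0.027, adjusted p = 7.33e-12) and Tpi1, which overlaps Spsb2, fell by 0.20 ± 0.026 on the log2 scale. The other enolases moved the opposite way. Eno4, the sperm enolase, which overlaps Hspa12a, had 41.3, 41.4 and 40.6 CPM in saline, 66.3, 64.8 and 61.4 at 50 mg/kg, then 53.96, 58.5 and 55.1 at 200 mg/kg (log2 fold change 0.54 ± 0.048, adjusted p = 3.5e-14), and Eno3, best known in muscle, had 30.7, 28.8 and 29.00 CPM in saline, 37.6, 40.5 and 41.4 at 50 mg/kg, then 42.1, 43.4 and 40.6 at 200 mg/kg (log2 fold change 0.47 ± 0.055, adjusted p = 4.52e-10). Transporters of lactate and pyruvate, Slc16a3 (0.44) and Slc16a7, were the remaining rises, and Gapdhs, the sperm form of a glycolytic dehydrogenase, fell (log2 fold change -0.15 ± 0.026, adjusted p = 7.53e-06). Ldhc, the lactate dehydrogenase of sperm, did not pass (log2 fold change 0.029 ± 0.019, adjusted p = 0.263), but passed on library size alone (adjusted p = 0.0257) and after the length correction (0.00965, 0.00965 to 1 over its alternatives).

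Of 35 tested antioxidant genes, which serve glutathione, peroxide and NRF2 defence, 16 fell, 2 rose and 17 did not pass, with a median of -0.10. Of all genes 14.9% fell, and 32.4% of those with a mean of at least 100 CPM, which 10 of the 35 had. Gstm1, a glutathione transferase, had 641, 624 and 634 CPM in saline, 558, 520.5 and 496 at 50 mg/kg, then 503, 499 and 525 at 200 mg/kg (log2 fold change -0.29 ± 0.026, adjusted p = 4.42e-13). Gss, which completes glutathione, had 24.8, 20.9 and 25.1 CPM in saline, 21.8, 22.9 and 22.5 at 50 mg/kg, then 9.34, 12.6 and 10.4 at 200 mg/kg (log2 fold change -0.61 ± 0.076, adjusted p = 3.42e-09). The 200 mg/kg libraries were below saline and the 50 mg/kg libraries were within its range. The call of Gss was lost with the 6 treated libraries as 1 group (adjusted p = 0.333, 6.98e-15 to 0.333 over its alternatives), and it overlaps Acss2. Gstm5 fell by 0.13 ± 0.023 on the log2 scale. The metallothionein gene Mt1 was lower (-0.18 ± 0.031), a call lost with all 12 libraries in the fit (adjusted p = 0.309, 1.81e-08 to 1 over its alternatives). Gclc (0.19), the first enzyme of glutathione synthesis, and Gsta3 (0.22) rose, named after their values were seen, and 1 of them was called without saline library 2. The falls numbered 10 with the 6 treated libraries as 1 group. Of the genes listed for report whatever their result, Hmox1, which breaks down haem, had 11.2, 9.02 and 13.2 CPM in saline, 8.90, 11.6 and 10.02 at 50 mg/kg, then 6.51, 6.10 and 9.13 at 200 mg/kg (log2 fold change -0.36 ± 0.12, adjusted p = 0.018). Saline and treated libraries overlapped, and the call was lost without saline library 1 (adjusted p = 0.077), without saline library 3 (0.223) and without 200 mg/kg library 1 (0.0507, 0.00138 to 0.621 over its alternatives). Gpx4, a lipid peroxidase of sperm mitochondria, changed by -0.096 ± 0.027 (adjusted p = 0.00545), a call lost with all 12 libraries in the fit (0.254), without saline library 3 (0.0935) and after the length correction (0.135, 0.000139 to 1 over its alternatives). Nqo1 (log2 fold change 0.018 ± 0.16, adjusted p = 0.948), Sod2 (log2 fold change -0.077 ± 0.037, adjusted p = 0.111) and Cat (log2 fold change -0.15 ± 0.085, adjusted p = 0.168) did not pass.

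Among immune genes, the antigen presentation list went different ways at the 2 doses. Of its 15 genes 7 fell and 2 rose in the pooled comparison, with a median of -0.21. Over all genes 14.9% fell and 15.1% rose. Against the same saline libraries 6 were higher and 4 lower at 50 mg/kg (median -0.033), while 1 was higher and 10 lower at 200 mg/kg (median -0.53). Of all genes 25.8% passed at 50 mg/kg and 27% at 200 mg/kg, in either direction. In the test of 200 against 50 mg/kg 8 were lower and 1 higher, against 5.46% lower and 5.43% higher over all genes. Their summed level was 226 to 235 CPM in saline, 230.4 to 246 at 50 mg/kg and 186 to 192 at 200 mg/kg, so that only the 200 mg/kg libraries lay apart from saline. Beside Tap1, the class I genes H2-K1 and H2-D1 were lower. H2-K1 had 26.6, 29.7 and 28.5 CPM in saline, 21.5, 18.7 and 17.97 at 50 mg/kg, then 24.3, 24.9 and 25.5 at 200 mg/kg (log2 fold change -0.37 ± 0.064, adjusted p = 7.15e-06) and H2-D1 had 50.4, 52.01 and 50.4 CPM in saline, 54.7, 51.4 and 43.9 at 50 mg/kg, then 38.5, 37.5 and 34.3 at 200 mg/kg (log2 fold change -0.25 ± 0.053, adjusted p = 0.000174), so H2-K1 was lowest at 50 mg/kg and H2-D1 at 200 mg/kg. Both have close copies. Nlrc5, an activator of class I genes, rose, with 3.31, 2.24 and 2.97 CPM in saline, 9.35, 9.98 and 10.7 at 50 mg/kg, then 6.23, 5.13 and 6.78 at 200 mg/kg (log2 fold change 1.47 ± 0.14, adjusted p = 1.08e-12), and the class II gene H2-Eb1 was the other rise (0.67), named after its value was seen. Without saline library 1 the rises numbered 1. Of 24 complement genes 10 fell and 1 rose, with a median of -0.26, against the same shares of all genes, 14.9% lower and 15.1% higher. Among the 10 was Clu, which is also on the Sertoli cell list. C4b, a central component, had 29.2, 29.99 and 27.9 CPM in saline, 22.5, 23.9 and 23.9 at 50 mg/kg, then 18.9, 18.8 and 20.2 at 200 mg/kg (log2 fold change -0.45 ± 0.062, adjusted p = 5.73e-08) and Serping1, an inhibitor of the cascade, had 28.3, 26.5 and 27.2 CPM in saline, 26.1, 23.05 and 22.2 at 50 mg/kg, then 19.4, 19.3 and 17.9 at 200 mg/kg (log2 fold change -0.37 ± 0.065, adjusted p = 8.83e-06). The 1 rise was Cd46 (0.22), a regulator found on the acrosome of rodent sperm, and the rises numbered 0 without saline library 2 and 2 without saline library 3.

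Macrophage markers fell in 7 of 15 and rose in 2, with a median of -0.37, against 14.9% lower and 15.1% higher over all genes. Lyz2, lysozyme, had 38.6, 38.2 and 40.3 CPM in saline, 36.6, 32.5 and 34.4 at 50 mg/kg, then 27.04, 23.6 and 26.5 at 200 mg/kg (log2 fold change -0.39 ± 0.056, adjusted p = 1.24e-07). Lgmn, a lysosomal protease, had 48.5, 46.7 and 50.1 CPM in saline, 40.8, 37.4 and 40.7 at 50 mg/kg, then 36.4, 33.7 and 35.9 at 200 mg/kg (log2 fold change -0.37 ± 0.050, adjusted p = 3.03e-08). Cd68 (-0.69), the growth factor receptor gene Csf1r (-0.47) and the scavenger receptor gene Cd163 (-0.40) were also lower. Fcgr3, a receptor for antibody, rose, with 13.4, 12.8 and 12.8 CPM in saline, 27.3, 26.8 and 26.6 at 50 mg/kg, then 17.1, 17.2 and 22.6 at 200 mg/kg (log2 fold change 0.80 ± 0.080, adjusted p = 4.37e-12), and Aif1 rose by 0.14 ± 0.026, from 336 CPM in saline, 368 at 50 mg/kg and 372 at 200 mg/kg on average. Adgre1, the F4/80 antigen, did not pass (log2 fold change -0.026 ± 0.16, adjusted p = 0.926). The 5 defining macrophage markers summed to 60.7 to 63.2 CPM in saline, 51.8 to 62.2 at 50 mg/kg and 44.2 to 51.005 at 200 mg/kg. These sums are far below the level of Aif1 alone, and which cells its counts come from was not tested. With the 6 treated libraries as 1 group 3 macrophage falls were called.

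NF-kB and cytokine signalling, the pathway closest to the inflammation of the study's title, was near the background. Of 36 tested genes 7 rose and 4 fell, with a median of 0.016, against 15.1% higher and 14.9% lower over all genes. Casp1, the protease that activates interleukin-1 beta, had 1.72, 1.06 and 1.13 CPM in saline, 4.10, 3.41 and 3.06 at 50 mg/kg, then 3.11, 3.19 and 3.36 at 200 mg/kg (log2 fold change 1.37 ± 0.21, adjusted p = 4.53e-07). Vcam1, an adhesion molecule for leukocytes, had 124, 132 and 129.8 CPM in saline, 161, 163 and 157 at 50 mg/kg, then 155, 156 and 153 at 200 mg/kg (log2 fold change 0.29 ± 0.032, adjusted p = 1.1e-10). The receptors of tumour necrosis factor moved the opposite way: Tnfrsf1a had 13.1, 12.7 and 13.5 CPM in saline, 10.5, 11.2 and 11.3 at 50 mg/kg, then 10.5, 8.52 and 9.41 at 200 mg/kg (log2 fold change -0.36 ± 0.089, adjusted p = 0.00137) and Tnfrsf1b fell by 0.64 ± 0.18, a call lost without saline library 2 (adjusted p = 0.121, 0.00198 to 0.121 over its alternatives). Rela, the p65 subunit of NF-kB, changed by -0.16 ± 0.056 (adjusted p = 0.0264), with overlapping libraries. Its call was lost in 8 alternatives beside the fold limits, such as without saline library 2 (0.134), without saline library 3 (0.15) and in DESeq2 (0.0677, 0.00489 to 1 over its alternatives). Nfkbia, the inhibitor of NF-kB, was the fourth fall (-0.31). The rises numbered 3 without saline library 3, and the falls 2 in DESeq2 and without saline library 2 or 3 or 50 mg/kg library 2. Nfkb1 (log2 fold change -0.15 ± 0.079, adjusted p = 0.158), Il1b (log2 fold change 0.43 ± 0.27, adjusted p = 0.239) and Tlr4 (log2 fold change -0.17 ± 0.33, adjusted p = 0.737) missed the threshold. Too few counts were found to test Tnf (3 in all 9 libraries), Il6 (0), Nlrp3 (20) or Ccl2 (14). Among 12 chemokine genes 4 fell and 2 rose, with a median of -0.30, to be read against the same shares of all genes. Ccl22 had 4.17, 3.92 and 3.68 CPM in saline, 6.72, 5.08 and 7.63 at 50 mg/kg, then 6.28, 7.76 and 6.67 at 200 mg/kg (log2 fold change 0.77 ± 0.14, adjusted p = 1.1e-05). Ccl25 rose by 0.46 ± 0.13, and overlaps Elavl1, while Ccl9 (-1.17 ± 0.37) and Cxcl14 (-0.94 ± 0.30), near 1 CPM, were lower. Ccl25 lost its call without saline library 2 (adjusted p = 0.0565, 0.00107 to 0.278 over its alternatives), Ccl9 too (0.125, 0.00434 to 0.125), and Cxcl14 also without saline library 1 (0.0911, 0.00315 to 0.115). The chemokine rises numbered 1 without saline library 2. The chemokine falls numbered 0 in DESeq2 and 1 to 2 without saline library 1, 2 or 3 or 200 mg/kg library 3.

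Genes of sperm motility did not move as 1 body. In the CatSper channel, which lets calcium into the flagellum, 8 of 15 genes rose and 1 fell, with a median of 0.12. Over all genes 15.1% rose, and 17.2% of those with a mean of at least 100 CPM, which 9 of the 15 had. The 4 named by rule encode accessory parts of the channel. Catspere2 had 30.2, 30.7 and 26.9 CPM in saline, 51.3, 56.4 and 51.7 at 50 mg/kg, then 54.7, 62.1 and 55.1 at 200 mg/kg (log2 fold change 0.91 ± 0.055, adjusted p = 7.75e-21). Catspere1 had 51.6, 51.96 and 49.6 CPM in saline, 59.3, 71.6 and 65.7 at 50 mg/kg, then 69.6, 64.4 and 71.8 at 200 mg/kg (log2 fold change 0.39 ± 0.048, adjusted p = 3.02e-09), and Tmem249, found with the channel, had 23.1, 21.5 and 24.02 CPM in saline, 33.5, 29.2 and 32.2 at 50 mg/kg, then 31.4, 30.97 and 33.2 at 200 mg/kg (log2 fold change 0.47 ± 0.062, adjusted p = 1.24e-08). Catsperd rose by 0.14 ± 0.030. In 7 of the 15 genes, these 4 among them, all treated libraries lay above saline, against 11.3% of all genes. In the other 8 they overlapped. The pore gene Catsper1 did not pass (log2 fold change -0.039 ± 0.033, adjusted p = 0.397), and C2cd6 (-0.086), which helps place the channel, was the 1 fall, not called without saline library 1. Of 27 axonemal dynein genes 9 rose and 5 fell, with a median of -0.0024. Of the 27, 18 had a mean of at least 100 CPM, where 17.2% of genes rose and 32.4% fell. Dnah7c, an inner arm heavy chain with close copies, had 115, 110.0 and 109 CPM in saline, 118, 143 and 132 at 50 mg/kg, then 146, 143 and 144 at 200 mg/kg (log2 fold change 0.31 ± 0.039, adjusted p = 1.58e-08) and Dnal1, a light chain that overlaps Pnma1, rose by 0.28 ± 0.059. Dnaaf1, which assembles dynein arms and overlaps Taf1c, had 1171, 1211 and 1226 CPM in saline, 1066, 1016 and 1064 at 50 mg/kg, then 1076, 1094 and 1099 at 200 mg/kg (log2 fold change -0.17 ± 0.022, adjusted p = 6.86e-09) and Wdr63, of an inner arm, fell by 0.27 ± 0.033. The rises numbered 5 without saline library 2 and 2 with all 12 libraries in the fit, and the falls 3 without saline library 2, 2 without saline library 3 and 3 without 200 mg/kg library 1. Dnah1, of the inner arms, changed by -0.083 ± 0.031 (adjusted p = 0.0364) with overlapping libraries, and its call was lost in 10 alternatives beside the fold limits, at 0.287 without saline library 2 (1.53e-05 to 1 over its alternatives). Akap4, the main protein of the fibrous sheath, had 2913, 2898 and 2923 CPM in saline, 2679, 2715 and 2685 at 50 mg/kg, then 2816, 2752 and 2768 at 200 mg/kg (log2 fold change -0.090 ± 0.019, adjusted p = 0.000151).

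Of 30 genes of the acrosome and sperm-egg fusion 8 rose and 4 fell, with a median of 0.043. Of the 30, 16 had a mean of at least 100 CPM, where 17.2% of genes rose and 32.4% fell. Spaca6, which sperm need for fusion, had 22.2, 24.6 and 24.3 CPM in saline, 31.2, 30.6 and 29.9 at 50 mg/kg, then 34.8, 30.3 and 32.99 at 200 mg/kg (log2 fold change 0.41 ± 0.061, adjusted p = 2.34e-07). Hyal5, a sperm hyaluronidase, rose by 0.20 ± 0.031 and Izumo2 by 0.20 ± 0.043, while Acr, the acrosomal protease acrosin, had 231, 225 and 225 CPM in saline, 220.1, 209 and 202 at 50 mg/kg, then 197, 197 and 197 at 200 mg/kg (log2 fold change -0.16 ± 0.029, adjusted p = 1.74e-05). With all 12 libraries in the fit the rises numbered 4 and the falls 2, and the falls also 2 on library size alone. Protamine 1 (Prm1) and transition protein 1 (Tnp1), which pack sperm chromatin, did not pass (log2 fold change -0.076 ± 0.051, adjusted p = 0.328, and log2 fold change 0.31 ± 0.14, adjusted p = 0.144). Prm1 passed in limma voom (adjusted p = 0.00846, 0.00778 to 1 over its alternatives), and Tnp1 passed without saline library 2 (0.000869, 0.000869 to 1 over its alternatives). Sirt1 (log2 fold change 0.097 ± 0.050, adjusted p = 0.138) and the cell cycle inhibitor gene Cdkn1a (log2 fold change -0.033 ± 0.10, adjusted p = 0.85), both studied in ageing, did not pass.

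Of the 20 lists plotted, those of the circadian clock and striated muscle held rises and 0 falls, and 0 also at an unadjusted p under 0.05, in DESeq2 and in limma voom. Of 19 clock genes 6 rose, with a median of 0.17, against 15.1% of all genes. Per1, a repressor arm gene, had 75.5, 74.6 and 81.97 CPM in saline, 88.7, 89.04 and 91.1 at 50 mg/kg, then 101, 94.4 and 94.8 at 200 mg/kg (log2 fold change 0.27 ± 0.040, adjusted p = 2e-07). Per3 had 5.33, 4.20 and 4.75 CPM in saline, 5.83, 7.81 and 7.53 at 50 mg/kg, then 6.17, 7.62 and 7.67 at 200 mg/kg (log2 fold change 0.58 ± 0.13, adjusted p = 0.000318), and overlaps Camta1. Rora, an activator, had 42.02, 37.1 and 40.9 CPM in saline, 47.8, 49.9 and 49.1 at 50 mg/kg, then 49.4, 51.8 and 49.3 at 200 mg/kg (log2 fold change 0.31 ± 0.050, adjusted p = 1.6e-06), and Tef, an output transcription factor, rose by 0.24 ± 0.056. In these 4 genes, the members with the smallest p, the 6 treated libraries were above saline, against 11.3% of all genes. In the other 15 clock genes treated and saline libraries overlapped. The sources used here do not give the time of day of collection. Of 15 striated muscle genes 5 rose, with a median of 0.32, against 15.1% of all genes. Beside Casq1, Neb and Eno3 they were Ttn, which encodes titin, with 6.80, 7.68 and 7.65 CPM in saline, 11.1, 13.8 and 15.01 at 50 mg/kg, then 15.6, 15.1 and 17.3 at 200 mg/kg (log2 fold change 0.99 ± 0.10, adjusted p = 4.42e-12), and Ryr1, the calcium release channel, with 4.53, 3.59 and 4.80 CPM in saline, 18.4, 20.1 and 18.6 at 50 mg/kg, then 7.15, 6.93 and 10.03 at 200 mg/kg (log2 fold change 1.53 ± 0.12, adjusted p = 8.06e-16). Ryr1 was highest at 50 mg/kg, and its call was lost with the 6 treated libraries as 1 group (adjusted p = 0.0528, 4.68e-37 to 0.0528 over its alternatives). The defining muscle markers summed to 2.00 to 2.05 CPM in saline, 1.67 to 2.46 at 50 mg/kg and 2.14 to 2.64 at 200 mg/kg, and 0 of the 2 that could be tested passed.

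**Figure D3:**
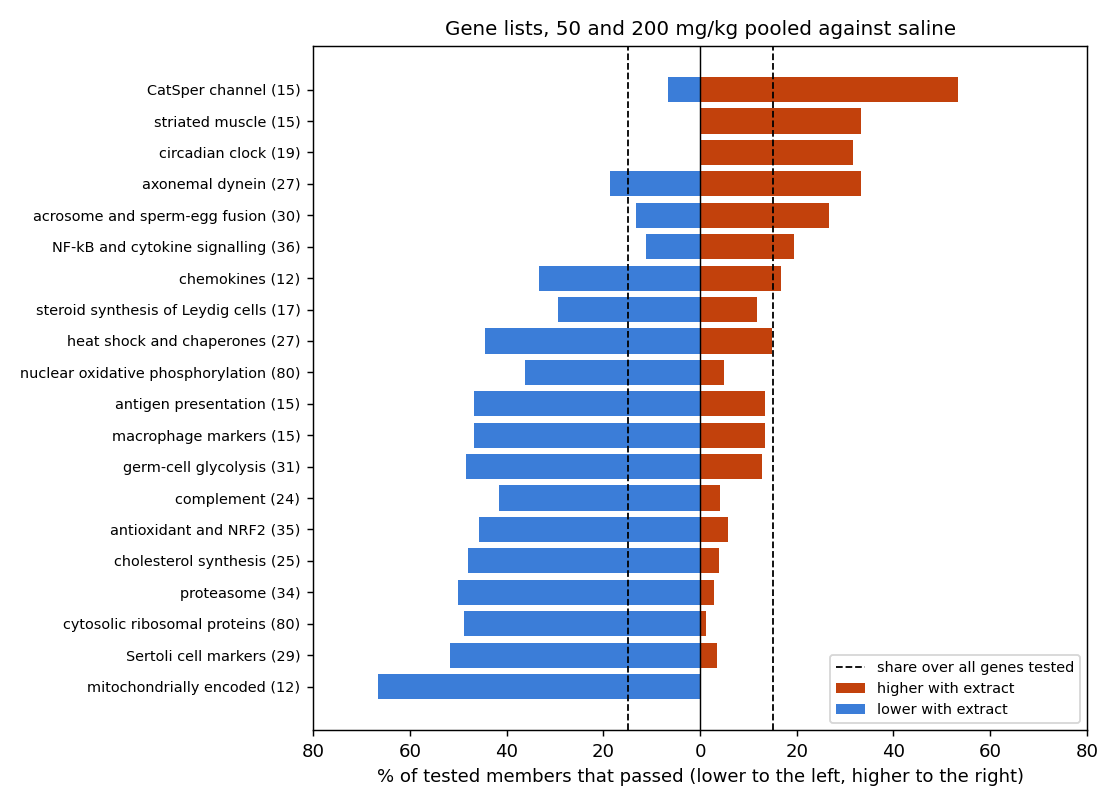
Percent of tested members that passed at an adjusted p under 0.05, to the right for genes higher with extract and to the left for genes lower, for 20 gene lists (tested members in brackets), with dashed lines at the shares over all genes (15.1% higher, 14.9% lower). The mitochondrially encoded, Sertoli cell, ribosomal and proteasome lists lie farthest to the left and the CatSper list farthest to the right.

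The pooled doses differed from each other in fewer genes than they differed from saline. In the test of 200 against 50 mg/kg 1689 genes passed (10.9%), 842 higher at 200 mg/kg (5.43%) and 847 lower (5.46%). Of the 4644 genes called against saline, 798 (17.2%) also differed between doses, against 891 (8.21%) of the 10855 others. Against saline each dose alone gave 4003 calls at 50 mg/kg (25.8%) and 4182 at 200 mg/kg (27%), with the saline libraries in common. In 204 genes (1.32%) the libraries of 1 dose lay above and those of the other below all saline libraries, and 191 of these (1.23% of all genes) passed the test between doses. For such genes the pooled value is an average of opposite changes.

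Rps2, of the small ribosomal subunit, had the largest difference between doses of the genes named for this pattern. It had 54.8, 52.4 and 55.8 CPM in saline, 8.20, 7.81 and 7.37 at 50 mg/kg, then 99.6, 107 and 98.98 at 200 mg/kg. The doses lay on opposite sides of saline with a 200 against 50 mg/kg log2 difference of 3.71 ± 0.068 (adjusted p = 1.37e-47), and log2 changes against saline of -2.80 and 0.90 at the low and high dose. Cwc22, a splicing factor with close copies, had 47.5, 48.03 and 43.8 CPM in saline, 11.7, 11.96 and 13.1 at 50 mg/kg, then 103, 92.7 and 98.1 at 200 mg/kg (difference 2.99 ± 0.065). Dapp1, an adaptor of phosphoinositide signalling in B cells, had 16.97, 18.1 and 16.3 CPM in saline, 4.80, 5.45 and 4.73 at 50 mg/kg, then 21.8, 21.2 and 20.9 at 200 mg/kg (difference 2.09 ± 0.11). Ahcy, which clears the by-product of methylation, had 8.64, 10.7 and 10.2 CPM in saline, 7.94, 7.81 and 7.58 at 50 mg/kg, then 18.9, 24.5 and 21.6 at 200 mg/kg (difference 1.47 ± 0.11). In these 4 genes the 200 mg/kg libraries were above saline and the 50 mg/kg libraries below. Ubxn10, a cilium gene that overlaps Pla2g2c, and Cit, citron kinase, had the same order with smaller differences (0.48 ± 0.032 and 0.71 ± 0.053).

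The reverse order held in Galntl6, of a family that starts mucin-type sugar chains, with 12.9, 11.2 and 14.3 CPM in saline, 17.5, 17.3 and 14.9 at 50 mg/kg, then 1.21, 1.32 and 1.79 at 200 mg/kg (difference -3.50 ± 0.16). It overlaps BC030500. Dynlt1b, a dynein light chain with close copies, had 103, 107 and 107 CPM in saline, 135, 127 and 125 at 50 mg/kg, then 75.2, 65.3 and 72.04 at 200 mg/kg (difference -0.86 ± 0.045). Star, the gate of steroid synthesis that brings cholesterol into mitochondria, had 119, 116 and 122 CPM in saline, 145, 149.8 and 152 at 50 mg/kg, then 104, 105 and 108 at 200 mg/kg (difference -0.50 ± 0.039, adjusted p = 1.3e-15). Its level was above saline in every 50 mg/kg library and below it in every 200 mg/kg library, and the pooled change did not pass (log2 fold change 0.075 ± 0.034, adjusted p = 0.0867). It passed on library size alone (adjusted p = 0.0206) and without 50 mg/kg library 1 (0.0328, 0.0206 to 1 over its alternatives). Stard6, of the same lipid transfer family, which overlaps 4930503L19Rik, had 349.7, 351 and 332 CPM in saline, 428, 417 and 425 at 50 mg/kg, then 325, 330.2 and 331 at 200 mg/kg (difference -0.36 ± 0.029). Zfp990 (-0.90 ± 0.067) and Csl, a gene like that of citrate synthase (-0.43 ± 0.033), were the others of this order.

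**Figure D4:**
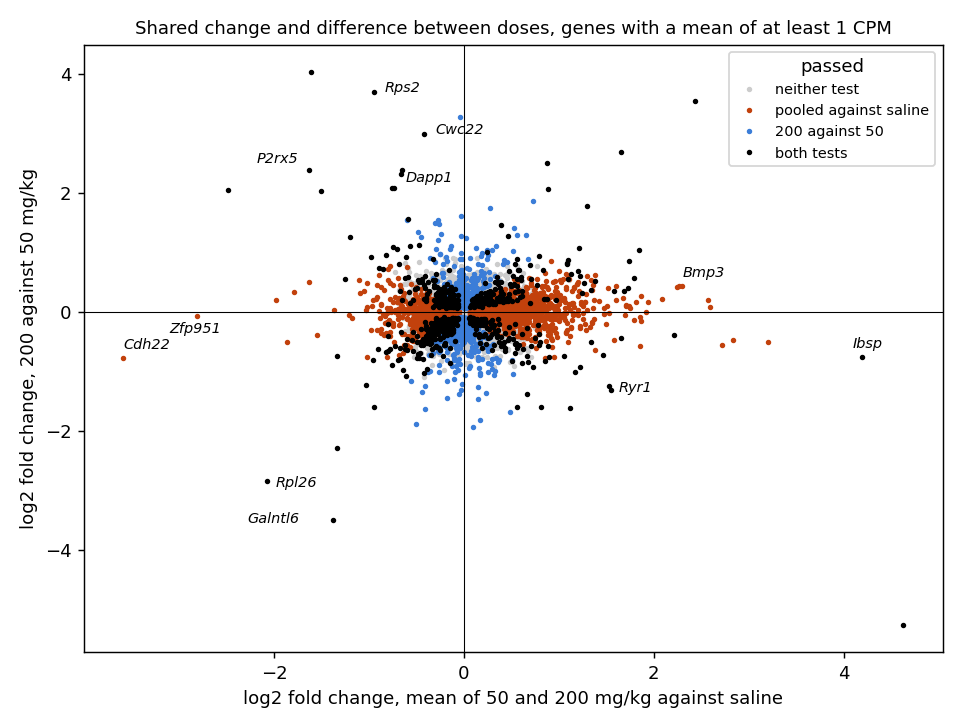
Each point is a gene with a mean of at least 1 CPM, with the log2 fold change of the pooled doses against saline on the horizontal axis and of 200 against 50 mg/kg on the vertical axis; colours give the tests passed. Ibsp and Cdh22 lie far out along the horizontal axis at 4.20 and -3.59, while Rps2 and Galntl6 reach 3.71 and -3.50 on the vertical axis.

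Calls were spread over the autosomes, where 28 to 33.2% of tested genes passed. On the X chromosome the share was lower and most calls were falls: of 669 tested genes 19 were higher and 103 lower (18.2%), with a median log2 fold change of -0.084. Across the alternatives without a fold limit the higher genes numbered 10 to 28 and the lower 74 to 118, and the median lay between -0.096 and -0.060. The named genes on X that were lower included Akap4, the cylicin gene Cylc1 (-0.28 ± 0.032) of the sperm head, the haem synthesis gene Alas2 (-0.39 ± 0.084), Ebp and Rhox5. The homeobox gene Esx1 stood at 27.9 CPM in saline, 20.6 at 50 mg/kg and 13.8 at 200 mg/kg (log2 fold change -0.73). Ogt, which adds a sugar to nuclear proteins, was among the 19 that rose, at 21.7 CPM in saline, 32.5 at 50 mg/kg and 34.6 at 200 mg/kg (log2 fold change 0.63), and Esx1 and Ogt were named after their values were seen. Of 40 tested genes on Y 1 was higher and 3 lower.

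**Figure D5:**
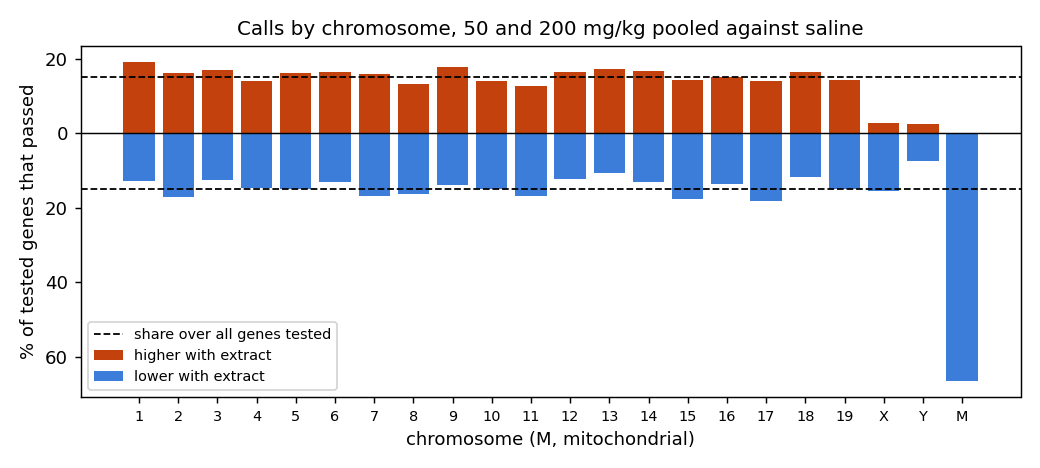
Percent of tested genes that passed in the pooled comparison by chromosome, upward for genes higher with extract and downward for genes lower, with dashed lines at the shares over all genes. The X chromosome has 19 genes higher and 103 lower of 669 tested, and the mitochondrial genome 0 higher and 8 lower of 12.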

How the data were processed

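Poly(A)-selected testis RNA was sequenced from 12 samples, and the values are whole-number read counts per gene in 1 table deposited by the authors. Trimmomatic, STAR, featureCounts and DESeq2 are named in the submitters' processing notes, with mm10 and GRCm38 as builds, and the sources used here give no versions or settings. The library kit keeps strand, but no setting for strand in the counting is stated, so reads of overlapping and antisense genes may be shared, as may those of close copies.

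Gene counts of the 9 libraries were filtered with filterByExpr, scaled by TMM and fitted in edgeR 4.0.16 under R 4.3.3 with robust quasi-likelihood dispersions in a 3-group design with no block. The contrast was the mean of the 50 and 200 mg/kg groups minus saline. Fold changes, standard errors and adjusted p-values (Benjamini-Hochberg over 15499 genes, threshold 0.05) come from that fit, whose common biological coefficient of variation was 3.23%. The same fit gave 200 against 50 mg/kg. CPM are TMM-scaled, and summed marker CPM use library size. Totals of 14382378 to 19118265 counts limit precision in genes near 1 CPM. The procedure was tested on counts simulated with the spread of these libraries, so the test cannot tell whether that spread is biological. It recovered 48% of genes changed 1.2-fold and 72% of those changed 1.5-fold, and 5.39% of its calls were false. Gene positions, lengths and overlaps came from GENCODE M21 on GRCm38, which placed 21851 of 21959 genes, and promoter windows from RefSeq on GRCm38.p6. Since 78.0% of tested genes had a window, under the limit of 80% set for such checks, motifs were not compared between gene groups.

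Genes were named by rule: with a mean of at least 1 CPM, an adjusted p under 0.05 and no overlap between treated and saline libraries, the 15 largest rises and falls by log2 fold change and the 10 by change in CPM, the 6 with the smallest p in each direction between doses among genes whose doses lie on opposite sides of saline, 4 members of each list with the smallest p, and a panel reported whatever its result. Predicted-gene and clone names were left out, and 1 gene that meets the rule is not reported here. The libraries, the members and the lists were chosen with earlier results of these data known. Alternatives were other scalings, filters and tools (DESeq2 1.42.0, limma 3.58.1 voom), all 12 libraries in the fit, the replicate number as a block, a correction for transcript length (lowess, span 0.3), the 6 treated libraries as 1 group, fold limits of 1.5 and 1.2 and leaving out each library.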

Additional observations from a re-analysis of the deposited data

Results flagged for a closer look

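Of the named genes, 53 differed between 200 and 50 mg/kg in the test of that difference itself (edgeR's quasi-likelihood test, adjusted p under 0.05). For these genes the pooled value averages unequal changes against saline. The background for this test is 10.9% of all genes, and 12 of the named genes were chosen on it. Values below are log2 differences of 200 minus 50 mg/kg, with negative values for genes lower at the higher dose.

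Levels at 200 mg/kg were lower than at 50 mg/kg in 32 genes, which were Galntl6 (-3.50), Rpl26 (-2.84), Ryr1 (-1.23), Gss (-1.07), Zfp990 (-0.90), Dynlt1b (-0.86), Ibsp (-0.75), Aldh1a7 (-0.73), Nlrc5 (-0.72), Star (-0.50), Fcgr3 (-0.50), Hmox1 (-0.48), Lhcgr (-0.47), H2-D1 (-0.44), Csl (-0.43), Lyz2 (-0.42), Rpl35a (-0.40), Zfp820 (-0.39), Stard6 (-0.36), Serping1 (-0.33), mt-Nd5 (-0.33), mt-Nd6 (-0.32), Nfkb1 (-0.29), C4b (-0.28), Rpsa (-0.26), Eno4 (-0.20), Hsp90b1 (-0.19), Ctsl (-0.18), Clu (-0.17), Cox7b2 (-0.14), Hyal5 (-0.12) and Aldh1a1 (-0.11). Those over 1 in size in this group are the sugar transferase gene Galntl6, the ribosomal gene Rpl26, the muscle calcium channel gene Ryr1 and Gss of glutathione synthesis.

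Levels were higher at 200 mg/kg in 21 genes, which were Rps2 (3.71), Cwc22 (2.99), P2rx5 (2.39), Dapp1 (2.09), Lhfpl3 (2.06), Ahcy (1.47), Fnbp1l (1.26), Cd8b1 (1.04), Cit (0.71), Crtam (0.56), Ubxn10 (0.48), H2-K1 (0.36), Cyp11a1 (0.22), Hsd3b6 (0.19), Agt (0.15), Dnah1 (0.14), Dnah7c (0.14), Hk1 (0.12), Wdr63 (0.12), Atp8b3 (0.093) and Tuba3b (0.083). Rps2, Cwc22, P2rx5, Dapp1, Lhfpl3, Ahcy, Fnbp1l and Cd8b1 exceeded 1 in size. In Rps2, Cwc22, Dapp1 and Ahcy the doses lay on opposite sides of saline, while P2rx5, Lhfpl3 and Fnbp1l fell at both doses and more at 50 mg/kg.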

How the results depend on the processing

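Among 21 alternatives, calls against saline numbered 4670 with RLE factors, 4590 on library size, 4768 without a filter, 4561 with at least 1 CPM, 3676 in DESeq2, 4985 in limma voom, 3316 with all 12 libraries and 4790 after the length correction. Leaving out 1 library gave 3488 (without saline 2) to 4963 (without 50 mg/kg library 1), with 1786 to 2522 higher and 1702 to 2441 lower. Limits on fold cut them most: 785 passed at 1.5-fold (601 higher, 184 lower) and 654 under glmTreat at 1.2-fold (504 higher, 150 lower). With the 6 treated libraries as 1 group 3290 passed, 1758 higher and 1532 lower. Calls between doses numbered 1200 in DESeq2 (554 lower), 792 with all 12 libraries (398 higher, 394 lower) and 1200 to 1684 with 1 library left out. The causes were not tested.

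Replicate numbers did not pair the libraries: deviations of same-numbered libraries correlated at -0.0354 to 0.0205, and of others at -0.021 to 0.0439. With the number as a block 4551 genes passed (2283 higher, 2268 lower), 4515 of them shared with the fit without it, and 1654 passed between doses.

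Of 155 named genes, 113 kept their side of the threshold and their direction in every alternative other than the fold limits. Direction turned for 7 genes. Csl changed by 0.0015 on library size and 0.00078 after the length correction. With the 6 treated libraries as 1 group Cwc22 changed by 0.245 (adjusted p = 0.881) and Rps2 by 0.00645 (0.998). With 1 library left out, Nqo1 ranged from -0.0604 to 0.139, Insl3 from -0.172 to 0.638, Cdkn1a from -0.201 to 0.0925 and Adgre1 from -0.0990 to 0.0386. Genes that differ between doses lost calls in the fit of 1 treated group by its construction, since the dose difference then counts as spread: Fnbp1l (adjusted p = 0.0873), P2rx5 (0.224), Rpl26 (0.205), H2-D1 (0.332), Lyz2 (0.0677) and Rpsa (0.0562) among them. Depth limits genes under 1 CPM, where a change must be large to pass.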

Other observations

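Further gene lists are read against 15.1% of all genes higher and 14.9% lower, and the genes named here were chosen after their values were seen. For lists of abundant genes the shares at 100 CPM or more apply, 17.2% higher and 32.4% lower. Some genes are on more than 1 list, here or above, such as Ctsl, Cldn11, Hspa5, Hsp90b1 and Akap4, so the lists are not independent. Of 26 autophagy and lysosome genes 13 fell and 0 rose, with 0 rises also at an unadjusted p under 0.05, in DESeq2 and in limma voom. The falls numbered 8 with the 6 treated libraries as 1 group. Of 24 genes of the unfolded protein response 10 fell and 1, Atf4 (0.17), rose, a rise not called without saline library 1. Among 38 meiosis genes 7 fell, such as Sycp1 (-0.53) of the synaptonemal complex, and 5 rose, such as Spo11 (0.84), which cuts DNA for recombination. Without saline library 2 the rises numbered 3. Of 24 piRNA genes 5 rose and 4 fell, and of 19 genes that replace histones by protamines 2 rose and 3 fell, with 1 rise without saline library 3. Of 56 genes of the axoneme 10 rose and 12 fell, with 4 rises without saline library 2 and 6 without saline library 3. Among 32 genes of sperm motility 12 fell and 4 rose, including the chloride channel gene Cftr (0.88), and among 30 fibrous sheath genes 10 fell and 4 rose. A mean of at least 100 CPM was reached by 25 of the 32 and 27 of the 30, so the share of 32.4% lower applies, and the falls were near it. Both lists had 2 rises without saline library 2.

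Of the immune and stromal groups, 19 interferon response genes and 15 endothelial genes each had 0 calls, and the summed endothelial markers were 10.7 to 12.7 CPM in saline, 12.3 to 14.2 at 50 mg/kg and 10.6 to 13.2 at 200 mg/kg. At an unadjusted p under 0.05 in edgeR 3 interferon and 2 endothelial genes were higher, and DESeq2 and limma voom gave 0 calls in both lists. Leaving out 1 library gave up to 2 interferon calls, without 200 mg/kg library 2. Of 6 lymphocyte genes 2 rose, Cd3d (0.40) and Cd8b1. The 6 defining lymphocyte markers summed to 1.63 to 2.61 CPM in saline, 1.87 to 2.72 at 50 mg/kg and 2.36 to 3.99 at 200 mg/kg. Of these markers 2 could be tested and 0 passed, and Cd3e and Cd8a had 22 and 5 counts in all 9 libraries. Of 31 fibroblast and matrix genes 8 fell and 2 rose, with 4 falls without saline library 3 and 5 without saline library 2 or 200 mg/kg library 1 or 3. Of 24 junction genes of the blood-testis barrier 8 fell and 1, Cdh2 (0.17), rose, with 2 rises without 50 mg/kg library 1. Sirt2 (0.54) was the 1 of 7 sirtuins to pass, and of 23 senescence and p53 genes 2 rose and 2 fell, with 0 rises without saline library 2 or 3 and 1 fall without saline library 2. Of 21 spermatogonial genes 3 fell (1 without saline library 1), and of 14 genes of peritubular myoid cells 4 fell (1 without saline library 2, 2 without saline library 3). Of 21 retinoic acid genes 5 fell and 1 rose, and of 24 genes of drug and lipid oxidation 8 fell and 3 rose.

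Genes that changed by at least 2-fold had neighbours that did so in 140 of 303 cases (46.2%), counting genes within 1 Mb. Of all tested genes 99.2% had another tested gene that near. The share for 303 genes drawn from all those tested was not computed, so clustering along chromosomes was not tested. On chromosome 5, Slc10a6 (-1.53), Ibsp, Zfp951 and Gbp4 (1.76) moved in different directions on the log2 scale. On chromosome 4, Zfp981 stood at 0.199 CPM in saline, 0.317 at 50 mg/kg and 3.77 at 200 mg/kg and Zfp991 at 0.722 CPM in saline, 0.892 at 50 mg/kg and 5.87 at 200 mg/kg, both weakly expressed and higher at 200 mg/kg.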
